A study of Homo sapiens with 6 samples.

Results

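The aminoacyl-tRNA synthetases, the enzymes that load each transfer RNA with its amino acid, were described in SH-SY5Y cells after 4 h of free bilirubin. Members were chosen by name: 19 enzymes of the cytosol, 13 enzymes of the mitochondrion and 3 proteins that hold cytosolic enzymes together in the multisynthetase complex, 35 genes in all. Of these, 29 were matched by the annotation to a probe set on the array, 18 cytosolic, 10 mitochondrial and 1 scaffold gene. A probe set of their own, annotated to no other gene, was found for 27 of them, out of 11963 such genes on the array. They were read by 43 of 22215 probe sets. FARSB, AARS2, EARS2, PARS2, AIMP2 and EEF1E1 were not matched to a probe set by the annotation and have no value here.

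SH-SY5Y is an established neuroblastoma cell line, so every array comes from 1 tumour line. In one group, Bf 140 nM, the growth medium was exchanged for medium with free (unbound) unconjugated bilirubin (UCB) at 140 nM for 4 h. In the other, DMSO 0.6%, cells received the solvent of bilirubin at 0.6% for the same 4 h. Each group had 3 arrays from separate flasks, and the same replicate numbers, 1 to 3, ran through both. Values are normalised levels on a generalised log2 scale, and differences are Bf 140 nM minus DMSO 0.6%.

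A synthetase recognises both its amino acid and the matching tRNA, joins them at the cost of ATP, and hands the charged tRNA to an elongation factor that carries it to the ribosome. Cytosolic and mitochondrial ribosomes draw on separate sets of charged tRNA, so most synthetases come as a pair of nuclear genes, by convention with the suffix 1 for the cytosol and 2 for the mitochondrion. GARS1 and KARS1 are exceptions, since each serves both compartments. When an amino acid runs short, uncharged tRNA activates the kinase GCN2, translation slows, and the transcription factor ATF4 accumulates. ATF4 with a C/EBP partner binds short composite elements (CARE) near genes of amino acid supply, several cytosolic synthetases among them. The same factor is reached from endoplasmic reticulum stress through the kinase PERK, which is why these genes are of interest in cells exposed to bilirubin.

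The promoters of the members were searched for the letters of such an element. RefSeq promoter windows of 300 bases, 250 before and 50 after each annotated start on GRCh38.p14, were found for 31 of the 35 genes, 43 windows in all, and were missing from the table used for LARS1, VARS1, YARS1 and AARS2. The letters TGATGNAA, searched on both strands (TTNCATCA on the other), occurred in 8 of the 43 windows (18.6%), and in 3.62% of the 35116 windows of all genes. The stricter form TGATGCAA, which is part of the first, occurred in 6 windows, against 0.866% of all windows. By gene, 7 of 16 cytosolic enzymes, 1 of 12 mitochondrial enzymes and 0 of 3 scaffold genes held TGATGNAA, against 4.46% of all 27305 genes. A match is a string of letters and was not shown here to be bound. The matches are printed on each gene's own strand, with the matched letters in capitals and 11 bases to each side, since ATF4 could act through such letters.
AARS1, chr16:70289675-70289704, minus strand: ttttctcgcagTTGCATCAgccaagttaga
CARS1, chr11:3057407-3057436, minus strand: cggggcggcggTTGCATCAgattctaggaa
GARS1, chr7:30594834-30594863, plus strand: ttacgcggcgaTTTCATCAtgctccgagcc
IARS1, chr9:92293692-92293721, minus strand: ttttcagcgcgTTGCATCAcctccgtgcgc
MARS1, chr12:57488053-57488082, plus strand: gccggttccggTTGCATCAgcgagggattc
NARS1, chr18:57621804-57621833, minus strand: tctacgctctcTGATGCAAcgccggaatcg
TARS1, chr5:33440956-33440985, plus strand: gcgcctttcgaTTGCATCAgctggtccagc
YARS2, chr12:32756076-32756105, minus strand: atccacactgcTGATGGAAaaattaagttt

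Counted from 0 at the annotated start, the match began at -2 in CARS1, -4 in MARS1, -13 in IARS1, -33 in GARS1, 2 in TARS1 and 14 in NARS1, so 6 of the 7 cytosolic matches sat close to the start. In AARS1 it began at -187 and in YARS2, the only mitochondrial gene of the set, at -197. Among the 7 cytosolic genes the match was read on the opposite strand in each but NARS1.

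On technical measures DMSO replicate 3 stood apart from the rest, and Bf replicate 2 was lowest on 1 of them by a small margin. Bf replicate 2 had the narrowest interquartile range of the 6 arrays, 2.25 against 2.33 to 2.66, and it was the lowest array for 16 of the 43 member probe sets (37.2%, against 30.7% of the 11107 probe sets brighter than the median). DMSO replicate 3 had a 3' minus 5' difference of beta-actin, which grows as labelled RNA becomes less complete, of 2.21, against 0.10 to 0.89 on the other arrays, and one of GAPDH of 1.30 against 0.10 to 0.38. It was the lowest array for 19 member probe sets (44.2%, against 43.4% of the brighter ones) and the highest for 10 (23.3%, against 13.4%). Between the groups these 2 differences gave exact two-sided permutation p = 0.9 and 1.0, with 0.1 the smallest that 3 against 3 arrays allow. The part of either array's measure in the members' values was not tested.

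None of the 43 member probe sets passed the adjusted p threshold of 0.10 by limma, and none of all 22215 probe sets did (0%). At an unadjusted p under 0.05 there were 0 member probe sets against 17 of all probe sets (0.0765%), and the lowest member p was 0.137, for WARS2 (adjusted p = 1.00, limma). The 3 Bf 140 nM values lay on one side of the 3 DMSO 0.6% values for 0 member probe sets, against 591 of all probe sets (2.66%). In cells of a culture, a lower share of cells that express a gene and less RNA per cell cannot be told apart. Differences over the 43 probe sets ran from -0.14 (LARS1) to 0.41 (FARSA). The 95% intervals excluded a 2-fold change in either direction for 42 of the 43, the exception being that FARSA probe set, and a 1.5-fold change for 33. These p-values and intervals come from the unpaired fit, which leaves the replicate numbers out. For dim probe sets this scale understates folds, so a true change of that size may lie outside such an interval.

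**Figure D1:**
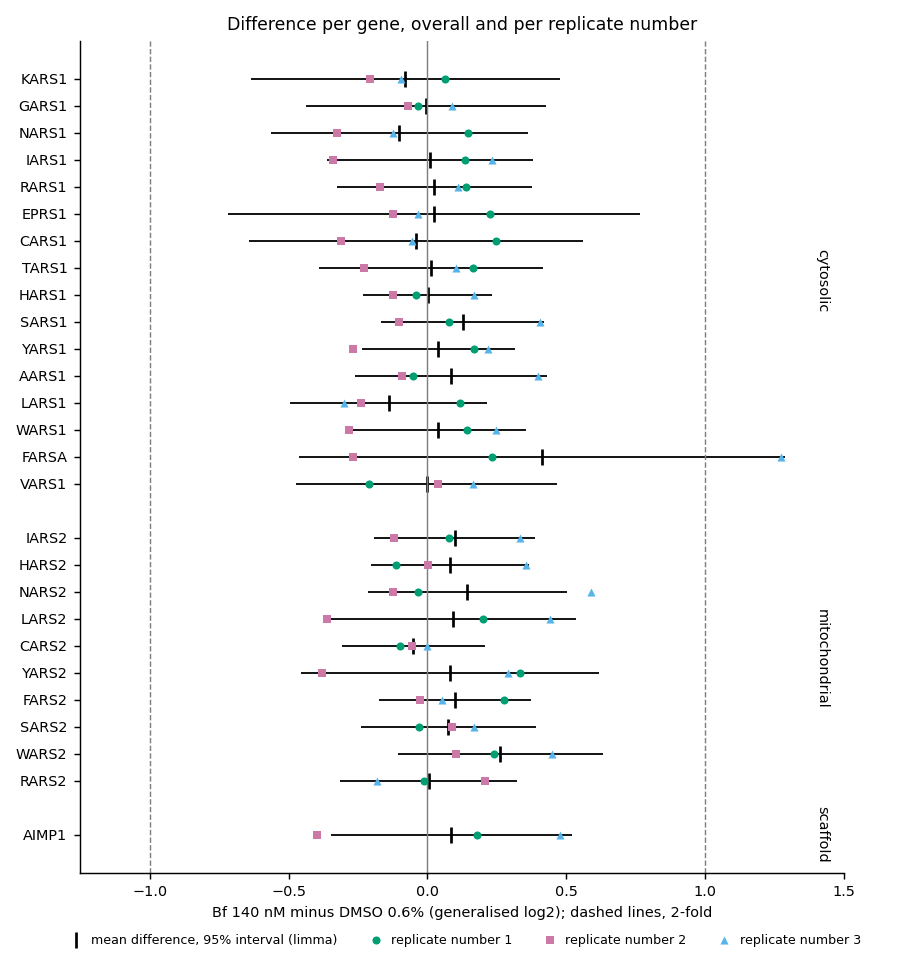
Difference between Bf 140 nM and DMSO 0.6% (generalised log2, x axis) for the 27 member genes with a probe set of their own (y axis, brightest first within each class). Black ticks and lines give the mean difference of 3 against 3 arrays with its 95% interval from limma, and coloured points the difference within each replicate number. All intervals include 0, and the pink squares of replicate number 2 lie left of 0 for all cytosolic genes but VARS1.

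The enzymes with the letters TGATGNAA in a promoter window had differences between -0.10 and 0.08 at 4 h, MARS1 left aside. On the probe set that stands for each gene, the brightest one annotated to that gene alone, the differences were 0.08 for AARS1, -0.04 for CARS1, -0.01 for GARS1, 0.01 for IARS1, -0.10 for NARS1, 0.01 for TARS1 and 0.08 for YARS2. MARS1, the methionine enzyme, has only probe sets that share their annotation with the microRNA gene MIR6758, and these differed by 0.19, 0.12 and 0.03.

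AARS1, CARS1, GARS1, MARS1, SARS1 and WARS1 are enzymes that the study lists from arrays of a later time, not analysed here. AARS1, the alanine enzyme, stood at 10.61, 10.50 and 10.55 in Bf 140 nM replicates 1, 2 and 3 and at 10.66, 10.59 and 10.15 in DMSO 0.6%. The Bf values lay inside the DMSO range, which was set by DMSO replicate 3, the lowest of the 6. GARS1, the glycine enzyme, was among the brighter members, at 12.45, 12.11 and 12.72 against 12.48, 12.18 and 12.63. In both groups its replicate 2 was lowest and replicate 3 highest, and no difference within a replicate number exceeded 0.09.

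CARS1, the cysteine enzyme, read 11.42, 10.96 and 11.81 against 11.17, 11.27 and 11.86 on its brighter probe set. The groups overlapped almost fully, with Bf replicate 2 lowest and DMSO replicate 3 highest. SARS1, the serine enzyme, read 11.20, 10.95 and 11.28 against 11.13, 11.05 and 10.87. Here too the ranges overlapped, with DMSO replicate 3 the lowest array, and the mean ratio on this scale was 1.09 (95% CI 0.891 to 1.34).
WARS1, the tryptophan enzyme, read 10.68, 10.26 and 10.64 against 10.53, 10.54 and 10.39 on its brighter probe set, a difference of 0.04 (SE 0.13). MARS1 read 11.03, 11.06 and 11.12 against 10.86, 11.22 and 10.77 on its brightest probe set. DMSO replicate 2 was its highest array and DMSO replicate 3 its lowest, so the control arrays bracketed all 3 treated ones.

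The multisynthetase complex binds several cytosolic enzymes into one particle. Of these, 5 had a probe set of their own, and the differences were small in each: -0.08 for KARS1 (lysine), 0.01 for IARS1 (isoleucine), 0.03 for RARS1 (arginine), 0.02 for EPRS1, the fused enzyme for glutamate and proline, and -0.14 for LARS1 (leucine). QARS1, the glutamine enzyme, whose probe set is shared with MIR6890, differed by 0.10. MARS1, also an enzyme of the complex, differed by 0.19, 0.12 and 0.03 on its shared probe sets. LARS1 had the lowest difference of the 27 genes, with 10.60, 10.20 and 10.52 in Bf 140 nM and 10.48, 10.44 and 10.82 in DMSO 0.6% (SE 0.15). Its Bf replicate 2 was the lowest and its DMSO replicate 3 the highest of the 6 arrays, and without DMSO replicate 3 its difference was -0.02. KARS1 was the brightest member, at 12.99, 12.65 and 13.41 against 12.92, 12.85 and 13.50. Replicate 3 was the highest array in both groups, and without DMSO replicate 3 the KARS1 difference was 0.12. The other KARS1 probe set had a difference of the opposite sign, 0.14, with all 6 arrays.

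AIMP1 is the only listed scaffold protein of the complex that the annotation matched to a probe set. It read 10.69, 10.22 and 10.53 in Bf 140 nM and 10.52, 10.61 and 10.06 in DMSO 0.6%, a difference of 0.09 (SE 0.19). DMSO replicate 3 was lowest and Bf replicate 2 next, so each group held one low array. A second probe set gave -0.03.

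Outside the complex, FARSA had the widest spread of the family. It encodes the catalytic alpha subunit of the phenylalanine enzyme, which works as a tetramer with FARSB, for which there is no value here. On its brighter probe set it read 10.58, 9.91 and 10.19 in Bf 140 nM and 10.35, 10.18 and 8.91 in DMSO 0.6%. The single value of 8.91, in DMSO replicate 3, lay well below the other 5, and without that array the difference was -0.04. The interval of its ratio ran from 0.726 to 2.44 with all 6 arrays. NARS1, the asparagine enzyme, read 12.22, 11.89 and 12.50 against 12.07, 12.22 and 12.62, a difference of -0.10 (SE 0.20). In it Bf replicate 2 was again the lowest array and DMSO replicate 3 the highest, and without DMSO replicate 3 its difference was 0.06.
The remaining stand-alone enzymes lay close to 0. HARS1 (histidine) and VARS1 (valine) had differences of 0.00 and -0.00, TARS1 (threonine) 0.01 and YARS1 (tyrosine) 0.04. Both probe sets of VARS1 gave nearly the same values, with -0.21, 0.04 and 0.16 in pairs 1, 2 and 3 on one and -0.22, 0.06 and 0.16 on the other.

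**Figure D2:**
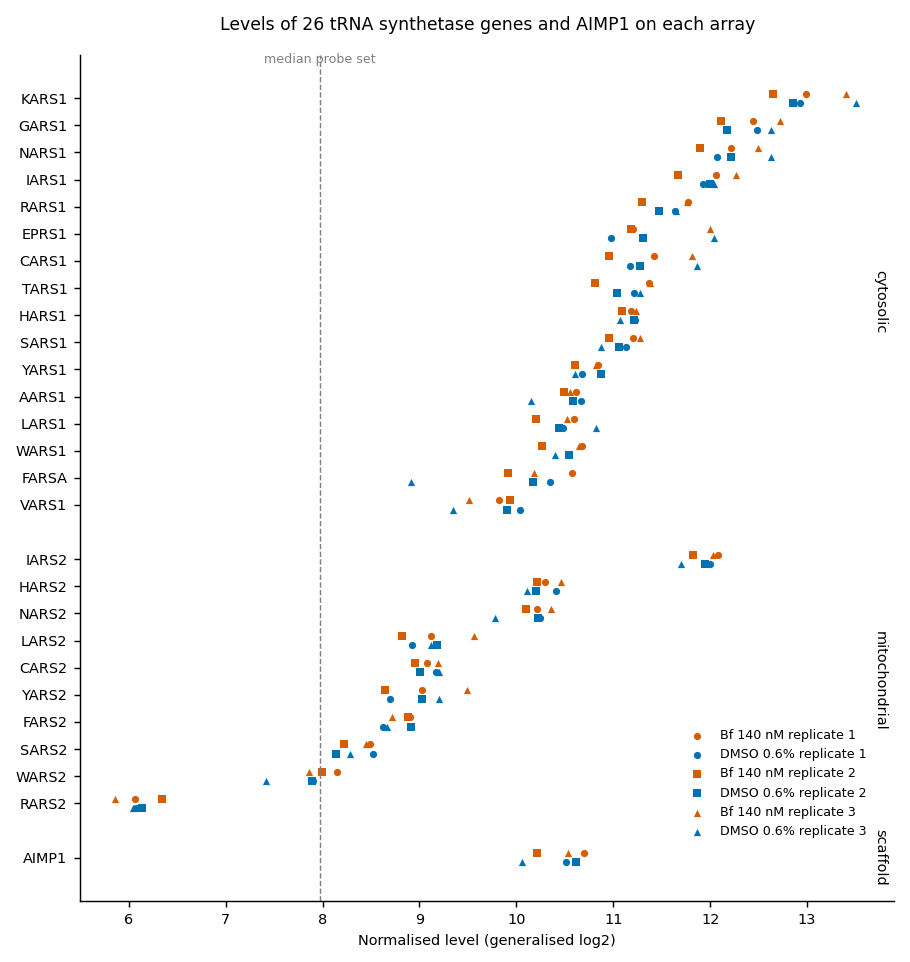
Normalised level (generalised log2, x axis) of the 27 member genes with a probe set of their own on each of the 6 arrays, 1 point per array, with Bf 140 nM in orange, DMSO 0.6% in blue and marker shapes for the replicate number. The dashed line marks the median of all probe sets, 7.97. The groups overlap in every gene, and the blue triangle of DMSO replicate 3 lies apart in FARSA.

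The mitochondrial enzymes charge the tRNAs that translate the few proteins encoded in mitochondrial DNA. WARS2, the mitochondrial tryptophan enzyme, came closest to separating the groups. It read 8.14, 7.99 and 7.87 in Bf 140 nM and 7.90, 7.89 and 7.42 in DMSO 0.6%, a difference of 0.26 (SE 0.16). The highest 2 values were treated arrays and the lowest was DMSO replicate 3, while Bf replicate 3 fell just below the other DMSO arrays. It was the only member probe set higher in Bf 140 nM in 3 of 3 pairs, against 1991 of all probe sets (8.96%), with 0.24, 0.10 and 0.45. Its mean lay just under the median probe set, and without DMSO replicate 3 the difference was 0.10.
CARS2, the cysteine enzyme, was the only member probe set lower in 3 of 3 pairs, against 1043 of all probe sets (4.70%). Its pair differences of -0.10, -0.05 and -0.00 reached almost 0, and its mean difference was -0.05 (SE 0.11).

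NARS2, the asparagine enzyme, read 10.21, 10.10 and 10.36 against 10.24, 10.23 and 9.77. Its difference of 0.14 (SE 0.15) came from pair 3 (0.59), since pairs 1 and 2 gave -0.03 and -0.12. Without DMSO replicate 3 its mean difference was -0.01. The other mitochondrial enzymes differed by 0.10 for FARS2 (phenylalanine), 0.10 for IARS2 (isoleucine), 0.09 for LARS2 (leucine), 0.08 for HARS2 (histidine), 0.08 for YARS2 (tyrosine), 0.07 for SARS2 (serine) and 0.01 for RARS2 (arginine). Both probe sets of RARS2 were dim, at means of 6.09 and 6.05, far below the median probe set of 7.97.

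The histidine enzymes of the cytosol and the mitochondrion are neighbours. HARS1 and HARS2 lie head to head on chromosome 5, and the 84 bases between their annotated starts, chr5:140691371-140691454 on the plus strand of GRCh38.p14, are 59.5% G and C. They are shown because they are the upstream sequence of both genes at once, with matches to the ETS core CCGGAAGT (ACTTCCGG on the other strand) in capitals.
HARS1 and HARS2: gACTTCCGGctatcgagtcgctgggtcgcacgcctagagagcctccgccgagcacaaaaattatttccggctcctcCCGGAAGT
The stretch held 2 such matches, 1 beside each start. CCGGAAGT was found in 9 of the 43 member windows (20.9%) and in 4.14% of all windows, counted with windows that overlap or belong to the same gene. HARS1 read 11.18, 11.09 and 11.23 in Bf 140 nM and 11.23, 11.21 and 11.06 in DMSO 0.6%. HARS2 read 10.29, 10.21 and 10.46 against 10.41, 10.20 and 10.11. Both were highest on Bf replicate 3 and lowest on DMSO replicate 3, and their differences were -0.04, -0.12 and 0.17 for HARS1 and -0.11, 0.00 and 0.36 for HARS2 in pairs 1, 2 and 3.

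As classes, the enzymes of both compartments can be described on 1 probe set per gene. The 16 cytosolic genes had a median difference of 0.01, with 10 above 0, and the 10 mitochondrial genes one of 0.09, with 9 above 0. Over all 11963 genes the median was 0.03 and 63.7% lay above 0. Over the 11107 probe sets brighter than the median probe set it was 0.05, with 7793 above 0. Without Bf 140 nM replicate 2 the medians were 0.16 and 0.17, without DMSO 0.6% replicate 3 they were 0.04 and 0.04, and adjustment for the beta-actin difference gave 0.03 and 0.07. The cytosolic probe sets that stand for a gene were bright, from 9.76 to 13.05, and all 16 lay above the upper quartile of probe sets, 9.47. Over all cytosolic probe sets the lowest level was 7.75. The mitochondrial ones that stand for a gene ran from 6.09 to 11.93, with 8 of 10 above the median probe set and 3 above the upper quartile. Of all 11963 genes, read in the same way, 6848 lay above that median and 3708 above that quartile. Probe affinity enters such levels, so they describe how brightly each gene was read and not the ratio of the transcripts.

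Within replicate numbers the classes moved further than their means. The cytosolic median was 0.14 in pair 1, -0.22 in pair 2 and 0.14 in pair 3, and in pair 2 only 1 of the 16 genes, VARS1, lay above 0. Of all genes 46.5% lay above 0 in pair 2, but of the probe sets brighter than the median only 24.7% did, with a median of -0.12. The mitochondrial medians were 0.03, -0.04 and 0.31, with 8 of 10 genes above 0 in pair 3, where 59.3% of all genes and 79.9% of the brighter probe sets were above 0. After quantile normalization, which gives every array the same distribution, the cytosolic medians were 0.07, -0.04 and -0.07, with 7 of 16 genes above 0 in pair 2, and the mitochondrial medians were -0.01, 0.07 and 0.04.

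**Figure D3:**
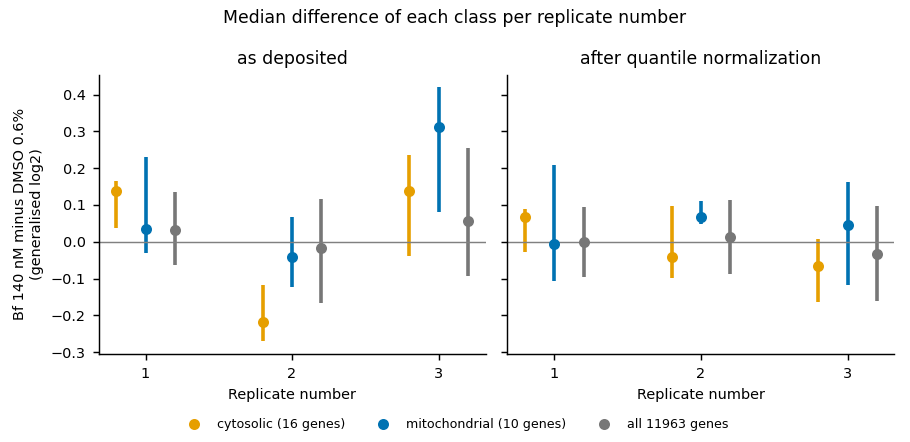
Median difference between Bf 140 nM and DMSO 0.6% within each replicate number (generalised log2, y axis) for cytosolic enzymes, mitochondrial enzymes and all genes, with bars from the lower to the upper quartile over genes, for the values as deposited and after quantile normalization. The cytosolic median of -0.22 for replicate number 2 and the mitochondrial median of 0.31 for replicate number 3 become -0.04 and 0.04 after quantile normalization.

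Where several probe sets read one gene, they often gave different answers in pair 3. Among the 11 such genes, the spread between probe sets of a gene was largest in pair 3 for 7, and its median was 0.14, 0.13 and 0.37 in pairs 1, 2 and 3. Over all 4310 genes with several probe sets the medians were 0.16, 0.18 and 0.26, and 53.3% were widest in pair 3. EPRS1 showed it most plainly. In DMSO replicate 3 its dimmest probe set was at its lowest, 8.83, and its brightest at its highest, 12.03, so that the gap between them was 3.20 there and 1.33 to 2.15 on the other arrays. From the dimmest to the brightest, the 3 probe sets of EPRS1 gave pair 3 differences of 1.02, 0.21 and -0.03. For FARSA, the brighter probe set stood 0.38 to 0.73 above the other on 5 arrays and 0.68 below it (-0.68) on DMSO replicate 3. The second FARSA probe set read 9.84, 9.35 and 9.81 against 9.74, 9.50 and 9.59, a difference of 0.06 (SE 0.15). WARS1 had 0.25 and 0.81 in pair 3. In 5 of the 11 genes, AIMP1, CARS1, FARS2, KARS1 and LARS2, the mean differences of the probe sets did not share a sign.

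**Figure D4:**
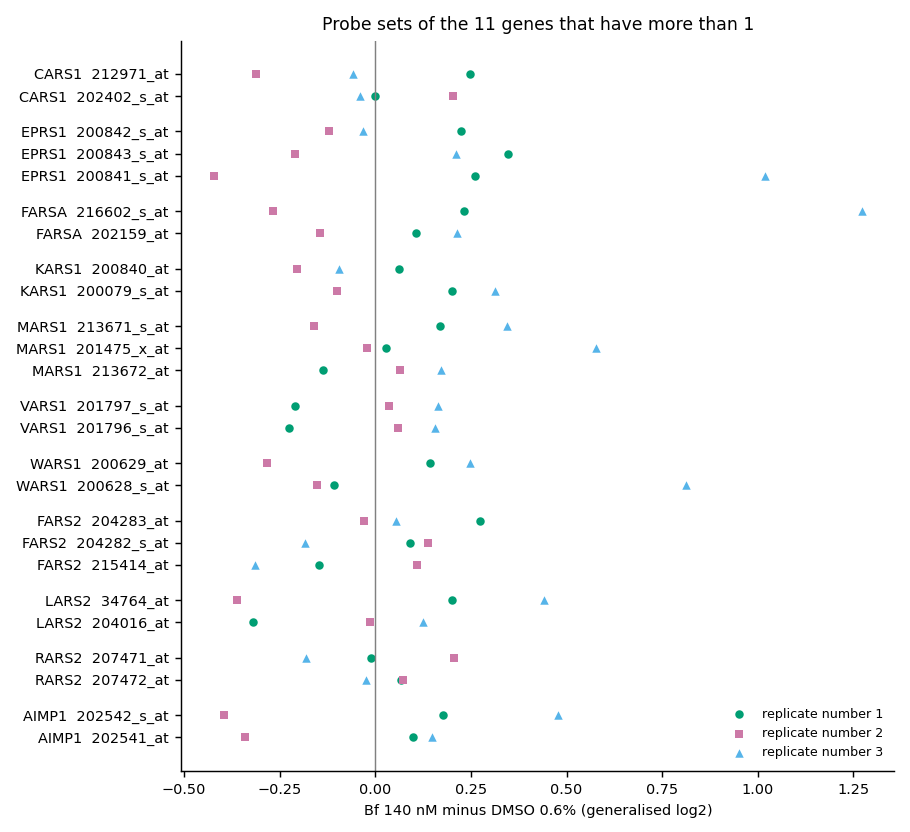
Difference between Bf 140 nM and DMSO 0.6% within each replicate number (generalised log2, x axis) for every probe set of the 11 member genes that have more than 1, 1 point per replicate number. The points of replicate number 3 reach 1.27 for FARSA, 1.02 for EPRS1 and 0.81 for WARS1 on one probe set each and stay at or below 0.25 on the other probe sets of these genes.

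Other genes of the pathway were counted on the same fit, and none passed the threshold in either direction. Of 8 genes that help charging without being synthetases, 4 were measured, with a median difference of 0.11. The lowest unadjusted p among them were 0.285 for QRSL1 (difference 0.19) and 0.411 for GATC (difference 0.23) by limma. Both are subunits of the mitochondrial amidotransferase that completes glutaminyl-tRNA, and GATB, another subunit, differed by -0.05. In pairs 1, 2 and 3 QRSL1 gave 0.14, -0.00 and 0.42, and GATC gave 0.12, -0.10 and 0.67. DMSO replicate 3 was the lowest array for both QRSL1 and GATC. Of 10 translation elongation factors 7 were measured, with a median of 0.06. The lowest unadjusted p were 0.321 for TUFM (difference 0.13) and 0.551 for TSFM (difference 0.10) by limma. These are the mitochondrial factor that delivers charged tRNA and its recycling partner. In pairs 1, 2 and 3 TUFM gave 0.03, -0.03 and 0.40, and TSFM gave 0.00, -0.23 and 0.54, with DMSO replicate 3 the lowest array for both. GFM1, another mitochondrial factor, differed by -0.01.

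Of 14 genes of the amino acid response, which include targets of ATF4, 12 were measured. GCN2, the kinase that uncharged tRNA activates, was not among them. ATF4 is also reached through PERK, so these genes do not read uncharged tRNA alone. The median difference of the 12 was 0.14 and 11 lay above 0, against 63.7% of all genes. Of the 12, 11 were brighter than the median probe set, and of 11107 such probe sets 7793 lay above 0, with a median of 0.05. The pair medians of the 12 were 0.27, -0.05 and 0.18, and 0 passed the threshold. DDIT3, the CHOP transcription factor, and CEBPB, a C/EBP protein, had the lowest p, with 0.44, 0.21 and 0.13 and with 0.44, 0.02 and 0.31 in pairs 1, 2 and 3. The groups did not overlap for DDIT3 alone among the 12, against 2.66% of all probe sets. The cytosolic synthetases, several of which hold the CARE letters, had medians of 0.14, -0.22 and 0.14 in those pairs. All these values come from the same 6 arrays.

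The label of the cells was checked on marker genes. Of 9 measured markers of noradrenergic neuroblasts 6 lay above the upper quartile of probe sets, against 3708 of all 11963 genes. GATA3 at 13.23, DBH at 12.79 and ISL1 at 12.41 were among them, while TH at 6.57 and HAND2 at 7.76 lay below the median probe set. Summed over the 9, the level ran from 95.04 to 97.29 in Bf 140 nM and from 95.48 to 97.21 in DMSO 0.6%. Of 7 mesenchymal or Schwann-like markers 3 lay above the median probe set, COL3A1 at 10.26, COL1A1 at 8.68 and LUM at 8.58, and of these only COL3A1 above the upper quartile, with sums of 55.9 to 57.3 against 56.4 to 57.9, and the groups did not overlap for 1, S100B (difference -0.07), against 2.66% of all probe sets. None of the 4 glial markers reached the median probe set. Correlations between arrays ran from 0.971 to 0.996.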

How the data were processed

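RNA of SH-SY5Y cells was read on Affymetrix GeneChip arrays, 3 per group. The authors normalised the arrays with vsn and deposited 1 table of 22277 probe sets, handled in R 2.5.0 according to the submitters' processing notes. The deposited values are on a generalised log2 scale: the base is not stated, and a highest value of 15.2, above the 11.1 that natural logs of 16-bit intensities can reach, gives base 2. Folds of dim probe sets are understated on it. The step from probes to probe set values is not stated in the paper or labels. The precision is limited by the number of arrays.

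Here 62 control probe sets were left out and 22215 were fitted with limma 3.58.1 in R 4.3.3, unpaired, two-sided, with Benjamini-Hochberg adjustment over all of them and a threshold of 0.10, the level of the study's methods. Intervals are at 95%. Gene names come from GEO's platform annotation: 19064 probe sets have 1 symbol, 1043 several and 2108 none. A gene was represented by its brightest probe set with 1 symbol, which left out MARS1 and QARS1 from class medians. Values array by array were given for members with groups that do not overlap (none), for the 6 enzymes the study lists at a later time, for the 3 largest differences in each direction, and for FARSA and the scaffold genes, and from the other lists the 2 genes with the lowest p were named. EPRS1, HARS1, HARS2, GATB, GFM1 and the second FARSA probe set were added after their values were seen. The members, lists and tests were chosen with earlier results of these data known. Sequences are RefSeq's on GRCh38.p14, and protein sequences were not used here.

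Same-numbered arrays deviated together from their group means, with correlations of 0.60, 0.23 and 0.57 for pairs 1, 2 and 3, all above 0.1, and 5 of 6 arrays correlated best with their own number, so the numbers were taken to pair the arrays. The source is the labels' replicate numbers and this check. The main fit, with its p-values, SEs and intervals, left this pairing out. With the replicate number as a block, the SE of the brightest EPRS1 probe set went from 0.32 to 0.12. That of HARS1 went from 0.10 to 0.12, so intervals of single members could become narrower or wider. Alternatives were the replicate block, quantile normalization, median centring, a filter on dim probe sets, omission of probe sets ending _s_at or _x_at, the beta-actin difference as a covariate, each array left out in turn, SAM, and a gene's median over its probe sets. Labels describe the replicates as independent cultures.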

Additional observations from a re-analysis of the deposited data

How the results depend on the processing

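The count of member probe sets past the threshold was 0 under each of the other settings run, SAM and the replicate block included, as was that over all probe sets. With the replicate number as a block, WARS2 had an unadjusted p of 0.0488 (adjusted p = 1.00, limma), the only member under 0.05, against 92 of all probe sets, and the block changed no call. The groups stood apart for 1 member probe set, WARS2, after quantile normalization (against 795 of all probe sets, 3.58%) and after centring (484, 2.18%). Leaving out one array gave counts from 0 to 11, where 2 against 3 arrays separate more easily. The highest, 11 (25.6%, 10 of them higher), came without Bf 140 nM replicate 2, where 3903 of all probe sets (17.6%) stood apart. The cause was not tested. The median difference of cytosolic enzymes ran from -0.066 (without Bf 140 nM replicate 3) to 0.16 (without Bf 140 nM replicate 2) with one array left out, and it was -0.01 after quantile normalization and -0.02 after centring, which moved the median of all probe sets from 0.03 to -0.00. The mitochondrial median kept its sign, from 0.01 after quantile normalization to 0.17 without Bf 140 nM replicate 2, and was 0.04 without DMSO 0.6% replicate 3. Of 342 differences of single genes under the alternatives, 66, in 21 genes, changed sign, each by less than the spread between arrays. Those of FARS2, HARS2, IARS2, LARS1, SARS1 and WARS2 did not. The 342 include the replicate block and the filter on dim probe sets. These leave a gene's difference as it is and could not change a sign. The most changes, 12 among the 27 genes, came without DMSO 0.6% replicate 3. With 3 arrays a group, differences of the size seen in these genes cannot be told from the spread between arrays.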
